A study of Homo sapiens with 6 samples.

Results

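Expression of the AP-1 subunits and the immediate early factors that are induced with them was compared between cells carrying a control shRNA and cells carrying an shRNA against VprBP. The 10 genes were FOS, FOSB, FOSL1, FOSL2, JUN, JUNB, JUND, ATF3, EGR1 and MAFF, taken by gene symbol as 10 of the 21494 genes in the count table. AP-1 is a dimer of basic leucine zipper proteins, in which a FOS family protein pairs with a JUN family protein and the JUN proteins also pair among themselves, and the dimer binds the DNA element TGACTCA. FOS, FOSB, JUN and EGR1 are immediate early genes, which are transcribed within minutes of growth factors, serum, stress or handling of the cells and whose mRNAs are short-lived, whereas FOSL1 accumulates later and under sustained MAPK signalling. AP-1 activity is a known part of growth and invasion programs in melanoma and in epithelial cancers.

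RNA-seq had been made from 6 samples. The labels name G361, a human melanoma cell line, with genotype WT for 3 samples and DCAF1 Knockdown for the other 3, and they name LD611 as the source of all 6. DCAF1 is the gene that encodes VprBP, a substrate receptor of a ubiquitin ligase that the study describes as a histone kinase. Both groups, called Control sh and VprBP sh here, carried an shRNA in a lentiviral vector and had been selected with puromycin, and the study's methods describe a single hairpin against the coding region of VprBP. The labels do not say that the 3 samples of a group came from separate cultures, so the p-values measure the spread between these samples, which may be technical. In RNA from whole cultures, a change in the share of cells that express a gene and a change in its level per cell cannot be told apart.

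The deposited estimated counts summed to between 18195949 and 26883948 per sample, so that 3 counts, taken as the limit of detection, were worth 2.30 to 3.48 normalized counts, for counting error only. DCAF1 itself was read at 688, 893 and 884 counts in the Control sh samples and at 681, 488 and 628 in those of VprBP sh. Its normalized counts fell by 0.58 on the log2 scale (SE 0.17, adjusted p = 0.01253, edgeR's quasi-likelihood test with Benjamini-Hochberg adjustment) and did not change 2-fold. With samples scaled by library size alone the fall did not pass the test (-0.37, adjusted p = 0.08512, edgeR's quasi-likelihood test). The VprBP sh samples had 760, 507 and 481 normalized counts and the lowest Control sh sample 797, so the groups were close in replicate 1 of VprBP sh. The mitochondrial share of the counts was 1.96% to 1.98% for Control sh and 4.10% to 4.48% for VprBP sh. Of the melanocyte markers looked for, 4 of 7 were in the table and summed to 199 to 236 normalized counts per Control sh sample and 244 to 308 per VprBP sh sample. MITF had 154 to 312 counts and PMEL 28 to 46 in every sample, and TYRP1 (0 to 4 counts) and MLANA (1 to 5 counts) were near 0. TYR, DCT and SOX10 were absent from the table, in which every gene had a sum of at least 10 counts. Of the urothelial and keratinocyte markers, 8 of 9 were in the table and summed to 187486 to 208532 normalized counts per Control sh sample and 43235 to 44439 per VprBP sh sample, with UPK1B at 0 in VprBP sh. They did not all move one way, but most were lower in VprBP sh. KRT14 went from 62464, 75812 and 86797 counts to 10, 2 and 1. TP63 (log2 fold change -9.86), KRT5 (-4.22), UPK1B, UPK2 and KRT7 were also lower. GATA3 went from 7, 1 and 0 counts to 1580, 1334 and 1873, and KRT18 was also higher (0.48). The 4 of 6 fibroblast markers in the table summed to 755 to 803 and 457 to 602 normalized counts, with LUM at 0 in VprBP sh. The part of these shifts in the results that follow was not tested. In every sample the urothelial and keratinocyte sum was far above the melanocyte sum, although the labels name a melanoma line. Which line was sequenced cannot be settled here, so the results that follow should not be read as those of melanoma cells without that doubt.

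A gene was called when edgeR's quasi-likelihood test gave a Benjamini-Hochberg adjusted p-value under 0.05 over the 16756 genes tested and the fold change was over 2. All 10 genes were tested, of which 3 (FOS, FOSB and EGR1) were called higher in VprBP sh, 4 (FOSL1, FOSL2, ATF3 and MAFF) were called lower and 3 (JUN, JUNB and JUND) were not called. By this test 46.4% of all genes tested were called, 24.5% higher and 22% lower in VprBP sh, against 70% of the 10. The study, which used a different algorithm, reported far fewer genes for this comparison at the same cutoffs, and the reason for the difference was not tested. Normalized counts of the 2 groups did not overlap for 9 of the 10 genes, with JUN as the exception, where 79.5% of all genes tested did not overlap. Without regard to fold, 9 of the 10 and 76.4% of all genes passed the p-value threshold. The median log2 fold change was -0.20 over the 10 genes and 0.08 over all genes tested, and the size of the change, taken without its sign, had a median of 0.92 over all genes. With 3 samples a group, the exact two-sided permutation test cannot go below 0.1, which 9 of the 10 genes reached.

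**Figure D1:**
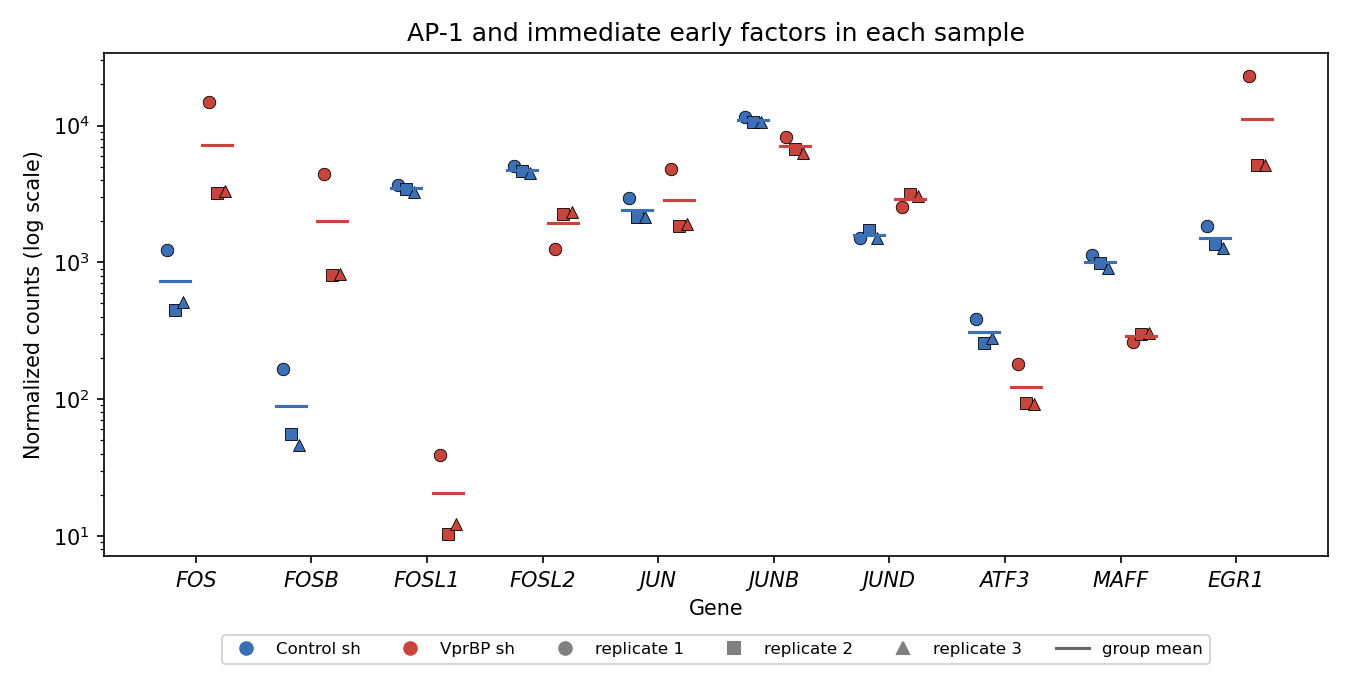
Normalized counts (log scale) of the 10 genes in each of the 6 samples, Control sh in blue and VprBP sh in red, with circles, squares and triangles for replicates 1, 2 and 3 and a bar at the group mean. FOS, FOSB and EGR1 lie higher in all VprBP sh samples with replicate 1 far above the others, FOSL1 falls from 3291 or more to 39.1 or less, and JUN overlaps between the groups.

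The sequences just before the starts of FOS, FOSB and EGR1, which rose together, and of MAFF, which fell, are shown because the same short element occurred in genes that moved in opposite directions. Each is the 250 bases before the transcription start in RefSeq on GRCh38.p14, 5′ to 3′ on the gene's strand, which is the plus strand for all 4 genes. Capitals mark matches on either strand to TGACGT, which is also the first part of the cyclic AMP response element TGACGTCA, to the CArG box bound by serum response factor, and to the EGR element GCGNGGGCG. The windows are chr14:75278578-75278827 for FOS, chr19:45467746-45467995 for FOSB, chr5:138465229-138465478 for EGR1 and chr22:38201744-38201993 for the first of the starts of MAFF.
FOS: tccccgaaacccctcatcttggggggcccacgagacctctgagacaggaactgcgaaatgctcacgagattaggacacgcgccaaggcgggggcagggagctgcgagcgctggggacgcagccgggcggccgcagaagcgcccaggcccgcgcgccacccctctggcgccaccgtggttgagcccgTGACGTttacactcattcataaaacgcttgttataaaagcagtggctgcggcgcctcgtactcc
FOSB: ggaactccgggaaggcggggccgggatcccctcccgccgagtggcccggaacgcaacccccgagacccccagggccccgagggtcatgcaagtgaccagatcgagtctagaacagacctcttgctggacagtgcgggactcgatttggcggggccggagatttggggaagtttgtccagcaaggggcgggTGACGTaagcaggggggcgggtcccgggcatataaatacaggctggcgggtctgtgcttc
EGR1: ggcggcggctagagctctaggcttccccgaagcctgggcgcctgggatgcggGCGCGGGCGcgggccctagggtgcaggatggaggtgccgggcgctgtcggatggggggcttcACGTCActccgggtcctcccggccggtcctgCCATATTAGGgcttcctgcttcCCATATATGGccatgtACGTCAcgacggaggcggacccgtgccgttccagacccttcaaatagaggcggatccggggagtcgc
MAFF: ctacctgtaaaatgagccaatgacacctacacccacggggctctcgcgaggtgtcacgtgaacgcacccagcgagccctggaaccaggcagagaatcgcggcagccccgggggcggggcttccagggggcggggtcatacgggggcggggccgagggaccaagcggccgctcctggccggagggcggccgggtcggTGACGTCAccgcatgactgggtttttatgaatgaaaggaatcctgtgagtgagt

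Promoter windows were found for 9 of the 10 genes, with 11 windows in all, since ATF3 and MAFF each had another start, and FOSL1 had none. TGACGT occurred in a window of 6 of the 9 genes (FOS, FOSB, FOSL2, JUND, EGR1 and MAFF). Counted by window, 6 of the 11 held it, where 7.10% of 35116 RefSeq promoter windows of the same length did. It lay 64 to 59 bases before the start of FOS, 60 to 55 before that of FOSB and 66 to 61 before that of FOSL2. The full TGACGTCA occurred in JUND and MAFF only among the 9 genes, and in 1.65% of all windows. The CArG box occurred in EGR1, at 105 to 96 and at 83 to 74 bases before the start, and in 1.16% of all windows, and GCGNGGGCG occurred in EGR1 and in 8.41% of all windows. No window of the 9 genes held the AP-1 element TGACTCA, which 4.20% of all windows held. Elements more than 250 bases before a start, or after it, were not looked for, so a gene without a match may have one there. Only exact matches were counted. Near matches, such as TGACATCA in windows of JUN and ATF3, were left out, so a window without a match may still hold a variant site. The genes with TGACGT were 3 that were called higher, 2 that were called lower and JUND, so the presence of these letters did not separate the directions.

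FOS (ENSG00000170345.10, hg38 chr14:75278826-75282230, plus strand) encodes the founding FOS family subunit, which has a strong transactivation domain and is normally present only briefly after a stimulus. It had 1225, 450.0 and 513.9 normalized counts in Control sh replicates 1, 2 and 3, and 14930, 3225 and 3345 in VprBP sh. All VprBP sh samples were above all Control sh samples, and replicate 1 was the highest of its group in both. The means were 730 ± 430 and 7167 ± 6724 normalized counts (SD, n = 3), and the log2 fold change was 3.30 (SE 0.64, adjusted p = 0.001064, edgeR's quasi-likelihood test), a 9.84-fold increase. The size of the increase rested on replicate 1: without VprBP sh replicate 1 it was 4.52-fold, without Control sh replicate 1 it was 14.8-fold, and without either it was 6.80-fold, each of which was still called.

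FOSB (ENSG00000125740.14, chr19:45467995-45475179, plus strand) encodes a second immediate early FOS protein. Its counts were low in Control sh, at 144, 51 and 49, and rose to 3967, 777 and 1069 in VprBP sh. On the normalized scale these were 166.9, 55.4 and 46.5 against 4429, 807 and 819, so that the groups did not overlap and replicate 1 again led both. FOSB had the largest relative increase of the 10 genes, 4.52 on the log2 scale (SE 0.79, adjusted p = 0.0005043, edgeR's quasi-likelihood test) or 22.9-fold. This was 9.25-fold without VprBP sh replicate 1, 39.4-fold without Control sh replicate 1 and 16.0-fold without either. The whole of FOSB lies within the span of ERCC1 on the opposite strand, and the sources used here do not give the strand setting of the counting, so reads of the pair may be mixed.

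FOSL1 (ENSG00000175592.9, chr11:65892049-65900573, minus strand) encodes FRA-1, a FOS family protein without the strong transactivation domain of FOS that is abundant in many invasive carcinomas and melanomas. It went from 3179, 3166 and 3471 counts in Control sh to 35, 10 and 16 counts in VprBP sh. In normalized counts these were 3685, 3442 and 3291 against 39.1, 10.4 and 12.3, and the groups were far apart in every sample. FOSL1 had the largest change of the 10 genes in either direction: its normalized counts fell from 3472 ± 199 to 20.6 ± 16.1 (SD, n = 3), which was -7.46 on the log2 scale (SE 0.30, adjusted p = 2.321e-08, edgeR's quasi-likelihood test) or 177-fold lower. Without VprBP sh replicate 1, the highest of the 3, it was 300-fold lower.

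FOSL2 (ENSG00000075426.12, chr2:28392448-28417317, plus strand) encodes FRA-2, the other FOS protein of that kind. Its normalized counts were 5069, 4649 and 4462 in Control sh and 1243, 2259 and 2327 in VprBP sh. The groups did not overlap, and replicate 1 of VprBP sh, the highest for FOS, FOSB and FOSL1, was the lowest for FOSL2. The log2 fold change was -1.28 (SE 0.20, adjusted p = 0.0002713, edgeR's quasi-likelihood test), 2.43-fold lower. FOSL2 was still called with any single sample left out, at -1.05 without VprBP sh replicate 1. With replicate 1 left out of both groups the log2 fold change was -0.99, just under the 2-fold limit, and in edgeR's test against a 2-fold change itself (glmTreat) FOSL2 did not pass (adjusted p = 0.07866). FOSL2 overlaps FOSL2-AS1 on the opposite strand and ENSG00000270640 on its own, so its counts may include some of theirs.

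The FOS family thereby differed in composition between the groups. To compare the levels of different genes, normalized counts were divided by the length of each gene's exons in kb and expressed as a share of the family sum in each sample. FOSL1 made up 63.5%, 69.5% and 68.8% of the FOS family in Control sh and 0.365%, 0.372% and 0.425% in VprBP sh. FOS made up 12.5%, 5.38% and 6.36% in Control sh and 82.5%, 68.5% and 68.7% in VprBP sh. In other words, FOSL1 was the leading family member in every Control sh sample and FOS in every VprBP sh sample, and that order was the same in replicate 1 and in the others. The lead of FOSL1 in Control sh holds per kb only, since without division by length FOSL2, whose mRNA is longer, held 52.6% of the family there. The share of FOSB rose from 0.563 ± 0.360% to 11.2 ± 2.49% (SD, n = 3) and that of FOSL2 was 24.1 ± 0.947% and 15.2 ± 10.5%, the latter spread being set by replicate 1 at 3.06% against 21.3% in each of the others. The sum of the family per kb did not move one way: it was 3075, 2624 and 2537 in Control sh, and 5678, 1479 and 1529 in VprBP sh, above all Control sh samples in replicate 1 and below them in replicates 2 and 3.

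**Figure D2:**
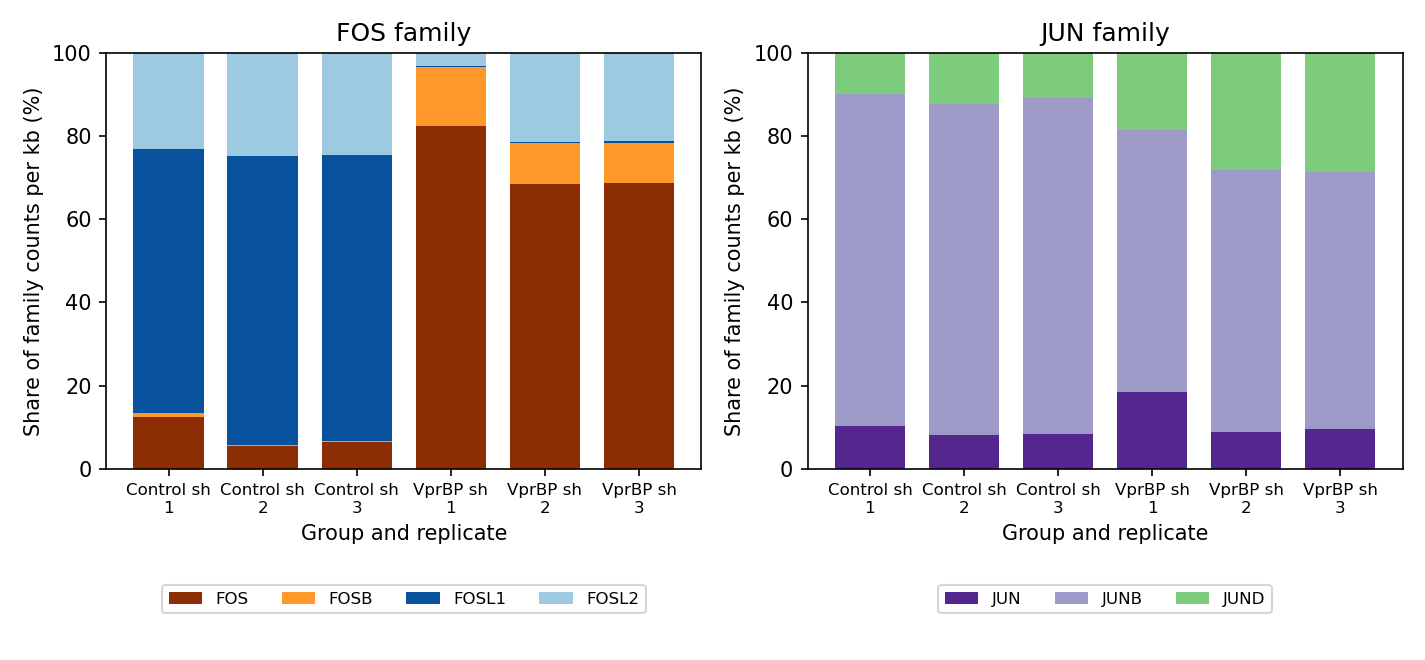
Share (%) of each gene in the summed normalized counts per kb of exon of the FOS family (left) and of the JUN family (right), 1 bar per sample. FOSL1 holds 63.5% to 69.5% of the FOS family in Control sh and under 0.5% in VprBP sh, where FOS holds 68.5% to 82.5%, while JUNB stays the largest part of the JUN family in all 6 samples.

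The JUN family changed less. JUN (ENSG00000177606.8, chr1:58776845-58784048, minus strand), the immediate early JUN protein that activates its own promoter, had 2943, 2143 and 2153 normalized counts in Control sh and 4771, 1842 and 1899 in VprBP sh. Replicate 1 of VprBP sh was above, and the other VprBP sh samples below, every Control sh sample. JUN was the one gene of the 10 whose groups overlapped, and its log2 fold change of 0.23 (SE 0.33, adjusted p = 0.5396, edgeR's quasi-likelihood test; exact permutation p = 1) did not pass the test. Its direction turned with replicate 1: without VprBP sh replicate 1 the log2 fold change was -0.37 (adjusted p = 0.0443, edgeR's quasi-likelihood test), and without replicate 1 of either group it was -0.20.

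JUNB (ENSG00000171223.6, chr19:12791486-12793315, plus strand), a JUN protein with weaker transactivation that opposes JUN in several settings, had the highest group mean of the 10 per kb of exon in both groups, although EGR1 and FOS exceeded it in VprBP sh replicate 1. It had 11581, 10684 and 10616 normalized counts in Control sh and 8201, 6697 and 6265 in VprBP sh, with no overlap. The fall of 0.64 on the log2 scale (SE 0.11, adjusted p = 0.0004274, edgeR's quasi-likelihood test) passed the p-value threshold but was less than 2-fold. JUND (ENSG00000130522.6, chr19:18279694-18281622, minus strand), the JUN protein that is usually expressed at a steady level in resting cells, had 1509, 1725 and 1514 normalized counts in Control sh and 2552, 3144 and 3050 in VprBP sh, also with no overlap. Its increase of 0.88 (SE 0.10, adjusted p = 3.312e-05, edgeR's quasi-likelihood test) was under 2-fold as well, and went past it, at 1.09, only when samples were scaled by library size alone. JUNB lies within the span of HOOK2 on the opposite strand.

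Per kb of exon, the share of JUNB in the JUN family (mean ± SD, n = 3) went from 80.1 ± 0.581% in Control sh to 62.7 ± 0.643% in VprBP sh, that of JUND from 11.0 ± 1.17% to 25.1 ± 5.65%, and that of JUN from 8.87 ± 1.20% to 12.2 ± 5.42%. The shares of JUNB did not overlap between the groups and were nearly the same within each. The family sum per kb was 7923, 7324 and 7180 in Control sh and 7121, 5798 and 5529 in VprBP sh, so that every VprBP sh sample was lower, replicate 1 only slightly. The ratio of the FOS family sum to the JUN family sum was 0.388, 0.358 and 0.353 in Control sh and 0.797, 0.255 and 0.276 in VprBP sh, higher than in any Control sh sample in replicate 1 and lower in replicates 2 and 3.

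ATF3 and MAFF are the other basic leucine zipper proteins of the group. ATF3 (ENSG00000162772.17, chr1:212565334-212620777, plus strand), a stress-induced factor that can repress transcription and pairs with JUN proteins, had 384.8, 257.6 and 280.6 normalized counts in Control sh and 179.8, 93.5 and 92.0 in VprBP sh. The groups did not overlap, and replicate 1 was highest in each. ATF3 was 2.55-fold lower in VprBP sh (log2 fold change -1.35, SE 0.27, adjusted p = 0.001308, edgeR's quasi-likelihood test), and it did not pass glmTreat against 2-fold (adjusted p = 0.09435).

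MAFF (ENSG00000185022.12, chr22:38200767-38216507, plus strand), a small MAF protein without a transactivation domain that pairs with CNC and BACH factors, had 1137, 989 and 904 normalized counts in Control sh and 262, 299 and 305 in VprBP sh. The groups were well apart and the samples of VprBP sh were close together. It was 3.49-fold lower in VprBP sh (log2 fold change -1.80, SE 0.12, adjusted p = 8.026e-07, edgeR's quasi-likelihood test). MAFF overlaps PLA2G6 on the opposite strand.

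EGR1 (ENSG00000120738.8, chr5:138465479-138469303, plus strand) is a zinc finger factor, not an AP-1 protein, that is induced by the same signals as FOS through serum response factor. It had 1839, 1362 and 1280 normalized counts in Control sh and 23068, 5136 and 5174 in VprBP sh. Every VprBP sh sample was above every Control sh sample, and replicate 1 of VprBP sh stood far above the rest. The means were 1494 ± 302 and 11126 ± 10342 normalized counts (SD, n = 3), and the log2 fold change was 2.90 (SE 0.55, adjusted p = 0.0008908, edgeR's quasi-likelihood test), or 7.45-fold. Without VprBP sh replicate 1 the increase was 3.45-fold, and without replicate 1 of either group 3.91-fold.

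**Figure D3:**
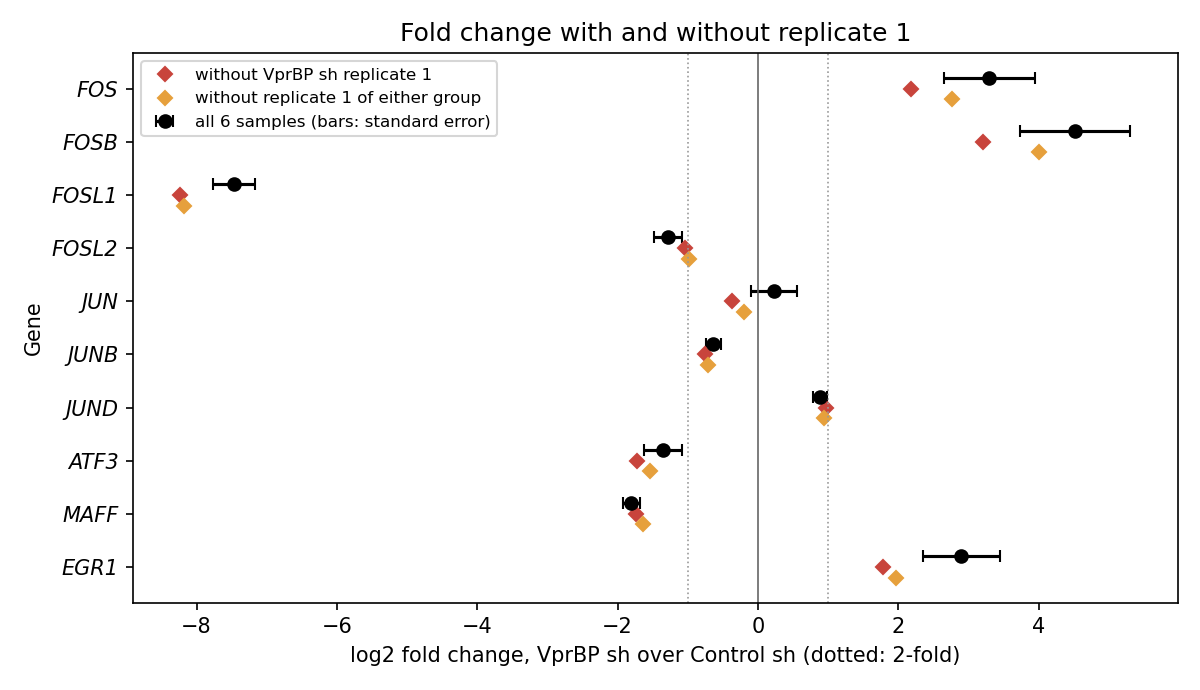
Log2 fold change of each of the 10 genes, VprBP sh over Control sh, from all 6 samples (black, bars for the SE), without VprBP sh replicate 1 (red) and without replicate 1 of either group (orange), with dotted lines at a 2-fold change. FOSB, FOS and EGR1 lie past 2-fold higher in each, FOSL1 is the farthest point at -7.46 and below, and JUN lies at 0.23 with all samples and below 0 without replicate 1.

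Ordered by mean normalized counts per kb of exon, Control sh ran from JUNB (5989) through FOSL1 (1840), JUND (821), JUN (666), FOSL2 (660), EGR1 (476), FOS (229), MAFF (180) and ATF3 (77.0) to FOSB (16.1). The ranges of JUND and JUN, of JUN and FOSL2, and of FOS and MAFF overlapped, and the other neighbours in that order did not. In VprBP sh the order was JUNB (3855), EGR1 (3547), FOS (2249), JUND (1511), JUN (783), FOSB (364), FOSL2 (271), MAFF (51.5), ATF3 (30.4) and FOSL1 (10.9). The neighbours from JUNB to JUND and from JUN to FOSL2 overlapped there, each through the wide range of replicate 1. FOSL1 thus went from the second place to the last, and FOSB from the last to the sixth by its mean, which replicate 1 carried: in VprBP sh replicates 2 and 3 FOSB (145 and 148) was below FOSL2 (315 and 325).

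The spread between replicates was uneven among the genes. The SD of log2(normalized counts + 1) within VprBP sh was 1.26 for FOS, 1.41 for FOSB, 1.25 for EGR1, 0.99 for FOSL1 and 0.78 for JUN, above the 95th percentile of all genes tested, which was 0.73, where the median gene had 0.16. Within Control sh it was 0.78 for FOS and 0.99 for FOSB, over that group's 95th percentile of 0.76 and median of 0.15, but 0.28 for EGR1 and 0.26 for JUN. Replicate 1 of VprBP sh was 4.55 times the mean of replicates 2 and 3 for FOS, 5.45 times for FOSB, 4.47 times for EGR1, 3.45 times for FOSL1, 2.55 times for JUN and 1.94 times for ATF3. JUNB (1.26), MAFF (0.868) and JUND (0.824) were near 1 and FOSL2 (0.542) was below it. The ratio and SD of FOSL1 in VprBP sh rest on 35, 10 and 16 counts, so counting error weighs more in them than for the other genes. In Control sh the same ratio was 2.54 for FOS and 3.28 for FOSB and at most 1.43 for the other 8 genes.

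These ratios were set beside those of all genes on the same scaled counts, whose median the scaling itself holds near 1. Over the 10393 genes whose means in both groups reached 100 normalized counts, the median ratio was 0.981 in Control sh and 1.01 in VprBP sh, and a ratio of at least 1.5, a limit set after the values were seen, was reached by 1.79% and 2.04% of them. Of the 8 genes described here that were at that level, 1 reached it in Control sh (FOS) and 4 in VprBP sh (EGR1, ATF3, FOS and JUN). Of the 22 other immediate early genes at that level, 2 reached it in Control sh and 10 in VprBP sh. FOS, NR4A1 and the nuclear RNA MALAT1 reached it in both groups, 3 of 10393 genes or 0.0289%. With shares of 1.79% and 2.04%, a few genes would do so even if the groups were unrelated, so that count shows no link between them. FOSB, with a mean of 89.6 normalized counts in Control sh, was below the level and is not in these counts. The 10 genes took 0.294% of all counts in VprBP sh replicate 1 and 0.106% to 0.123% in the other 5 samples. The labels give no date or batch for the samples, and what set replicate 1 apart was not tested.

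**Figure D4:**
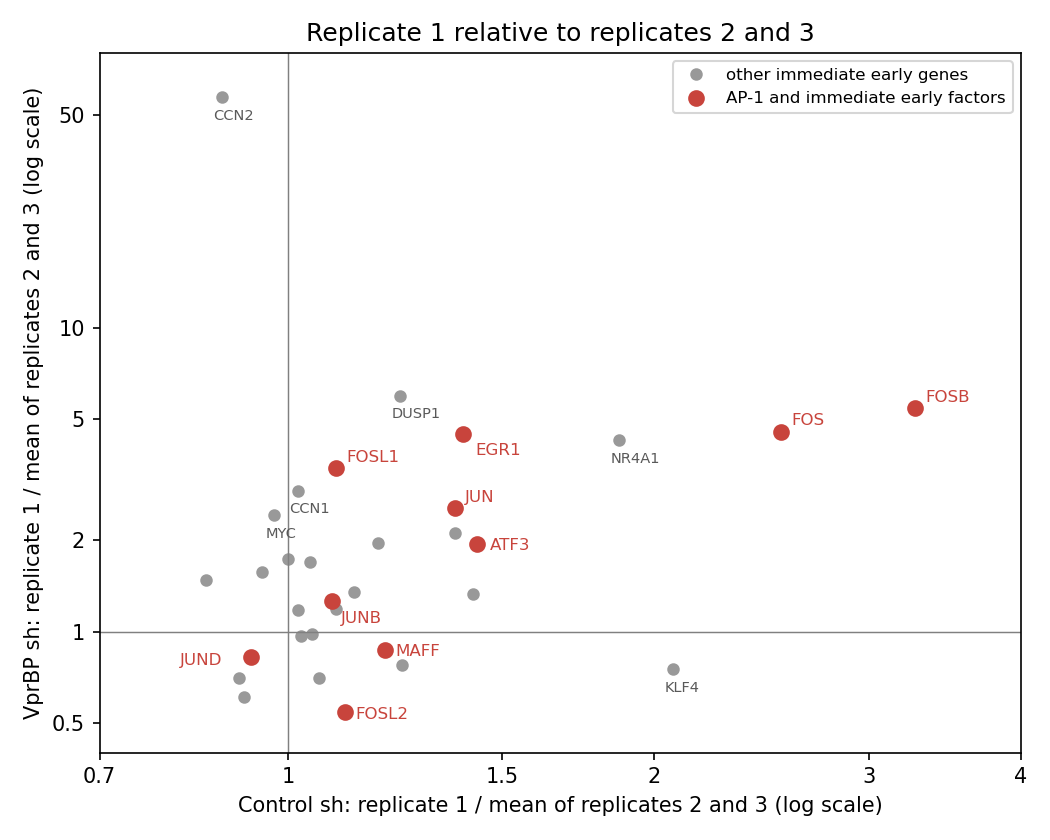
Replicate 1 divided by the mean of replicates 2 and 3 in Control sh (x axis) and VprBP sh (y axis), both on log scales, for the 10 genes in red and for other immediate early genes that averaged at least 100 normalized counts in each group in grey. FOS and FOSB lie above 1 on both axes, EGR1, FOSL1, JUN and ATF3 mainly on the VprBP sh axis, and CCN2 reaches 57.5 there.

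Other immediate early genes were mixed in direction. Of 30 listed, 27 were tested, of which 6 were called higher, 6 lower and 15 not called (44.4% called, near the 46.4% of all genes), with a median log2 fold change of 0.68 against 0.08 over all genes. NR4A2, an orphan nuclear receptor, went from 32, 37 and 32 counts to 434, 432 and 534 (log2 fold change 3.64, adjusted p = 5.09e-08, edgeR's quasi-likelihood test), and IER2, a nuclear protein of the early response, from 2397, 2754 and 3002 counts to 14865, 10190 and 13720 (2.13, adjusted p = 2.466e-06). SGK1, a serum-induced kinase, fell from 1823, 2586 and 3014 counts to 41, 24 and 31 (-6.40, adjusted p = 1.28e-08), and BTG2, an antiproliferative factor, from 1279, 1139 and 1217 to 88, 117 and 171 (-3.45, adjusted p = 4.122e-08). The groups did not overlap for 18 of the 27 genes tested, these 4 among them, where 79.5% of all genes tested did not overlap. The 4 were named for their large changes, so their lack of overlap is no separate result. The count of the list moved with replicate 1 of VprBP sh: 10 of its genes were called lower without that sample, as without replicate 1 of either group.

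CCN2 and DUSP1, chosen after their values were seen, show that dependence. CCN2, a matrix protein and target of SRF and YAP, had 533, 583 and 627 normalized counts in Control sh and 3029, 57.1 and 48.3 in VprBP sh. DUSP1, a phosphatase that switches off MAPKs, had 991, 842 and 760 and then 1396, 240 and 227. For both, replicate 1 of VprBP sh was above, and the others below, all Control sh samples, the pattern of JUN. NAB2, a corepressor of EGR1 and also chosen after its values were seen, had the reverse, with 721, 604 and 602 normalized counts in Control sh and 300, 890 and 860 in VprBP sh.

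The kinases and regulators upstream of these genes mostly stayed within 2-fold. The list of 28, all tested, included the ERK, JNK and p38 kinases, SRF, the ELK factors and CREB1. Of these, 0 were called higher and 3 lower by edgeR's quasi-likelihood test (10.7% called, where 46.4% of all genes were), with a median log2 fold change of -0.02. The 3 were ELK3, a partner of SRF (2791, 1978 and 2337 counts against 158, 177 and 228, log2 fold change -3.83, adjusted p = 5.09e-08), RPS6KA4, a histone kinase downstream of ERK and p38 (7959, 8536 and 9543 against 1723, 2278 and 3009, -2.06, adjusted p = 6.209e-08), and MAP2K1, the kinase that activates ERK (-1.71, adjusted p = 1.008e-07). SRF (log2 fold change -0.976, adjusted p = 2.472e-06, edgeR's quasi-likelihood test) and RPS6KA3 (-0.980, adjusted p = 6.139e-05) were also lower, without overlap, but just under the 2-fold limit. Messenger RNA levels say nothing of the phosphorylation through which the listed kinases act.

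Of 16 basic leucine zipper proteins that pair with or compete with AP-1 subunits, 14 were tested, with 2 called higher and 6 lower (57.1% called, where 46.4% of all genes were) and a median log2 fold change of -0.60. BATF, a factor that pairs with JUN proteins and lacks a transactivation domain, had 0 counts in each Control sh sample and 308, 482 and 701 in VprBP sh, at least 144-fold higher against the floor of 3 counts per sample. BACH2, a repressor that pairs with small MAF proteins, went from 249, 156 and 178 counts to 0 in all 3 samples, at least 71.5-fold lower, and MAF, a large MAF protein, from 221, 187 and 207 counts to 0, at least 74.8-fold lower.

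Genes reported elsewhere as AP-1 targets were nearly all lower. Of 25 listed, 22 were tested, and 20 of these were called lower and 0 higher by edgeR's quasi-likelihood test (90.9% called). Of all genes tested, 46.4% were called and 22% were called lower. The list was chosen with earlier results of these data known. Its median log2 fold change was -5.06, or -4.68 with the 2 genes at 0 counts throughout VprBP sh (MMP1 and IL6) set at their bound. The 2 that were not called were VEGFA (0.53, adjusted p = 0.009028, edgeR's quasi-likelihood test) and CD44 (-0.17, adjusted p = 0.1455). HMGA2, a chromatin protein, went from 2527, 3175 and 3625 counts to 2, 0 and 1, a 3273-fold difference with a 95% Poisson interval of 1120 to 15870 for the 3 counts of VprBP sh, which covers counting error only and not the spread between samples. These targets fell in the samples in which FOS, FOSB and EGR1 rose and FOSL1 fell. The urothelial and keratinocyte marker sums fell in the same samples, and how the 3 sets of changes relate was not tested.

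**Figure D5:**
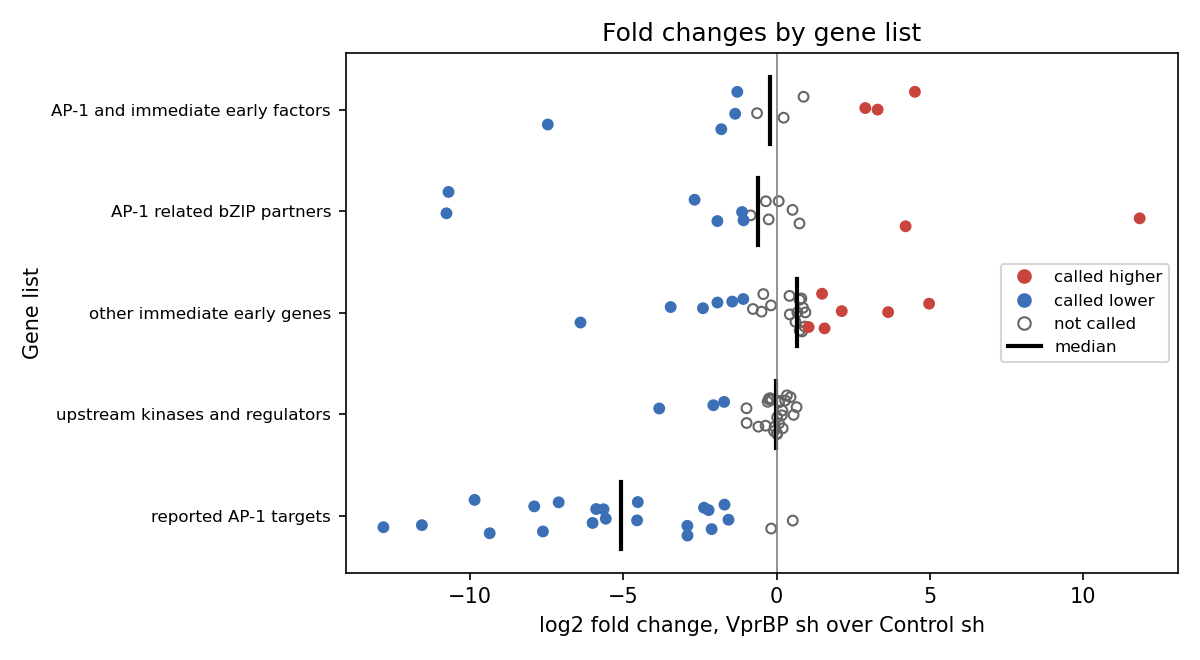
Log2 fold changes, VprBP sh over Control sh, of the 10 genes and of the members tested of the 4 related lists, 1 point per gene, red for called higher, blue for called lower, open for not called, and a bar at the median. Genes at 0 counts throughout a group (BATF, BACH2, MAF, MMP1 and IL6) are drawn at their fitted values, which are no bounds. The reported AP-1 targets lie almost wholly below 0 (median -5.06), the upstream kinases and regulators mostly within 2-fold (median -0.02), and the other lists on both sides.

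By the likeness of centred log2 profiles over the 6 samples, among 12132 genes averaging at least 100 normalized counts, the genes closest to JUNB, which of the 10 had the highest mean normalized counts over all 6 samples, were CEP95 (root mean square distance 0.0335), ERP44 (0.0391) and MED13 (0.0399).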

How the data were processed

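RNA-seq was analysed for 6 samples, 3 Control sh and 3 VprBP sh, grouped by the sample titles. The authors aligned single-end reads to hg38, quantified genes with Partek Flow and deposited estimated counts, neither normalized nor pooled. Methods and labels name different library kits, and counting by strand is not given in the sources used here. Of the values 59.4% were whole, and all were rounded to whole counts, the design having been written for counts. Every one of the 21494 genes had a sum of at least 10. Counts were scaled by upper quartile factors (quantile 0.75), filtered with filterByExpr (minimum count 10), which left 16756 genes, and tested with the quasi-likelihood test of edgeR 4.0.16 in R 4.3.3 over all 6 samples with no replicate block, in place of the Gene Specific Algorithm, which was not used. Calls required a Benjamini-Hochberg adjusted p-value under 0.05, over all genes tested, together with a change of more than 2-fold. The SE of a log2 fold change was derived from its F statistic. Exon lengths and overlaps came from GENCODE, with coordinates as in the deposited table, and promoters from RefSeq. Protein sequences were not used here.

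The genes and lists were chosen with earlier results of these data known. Named from each list were the 2 called genes that rose most and the 2 that fell most, provided their higher group averaged at least 100 normalized counts, and the 3 genes most like the one of the 10 with the highest mean. Some genes that this rule names are not reported here. Alternatives were TMM factors, library size alone, DESeq2 1.42.0, limma-voom (limma 3.58.1), a replicate block, all genes without a count filter, 10 counts in every sample, glmTreat against 2-fold, leaving out each sample, and shares without division by length. Leaving replicate 1 out of both groups was chosen after seeing the data. The procedure was tested on simulated data in which few genes changed and all had the same relative spread. That test does not cover genes that vary between replicates as FOS, FOSB and EGR1 did. Figures were drawn in Python 3.11.15 with matplotlib 3.10.9.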

Additional observations from a re-analysis of the deposited data

How the results depend on the processing

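The number of the 10 genes called higher was 3 under every alternative but library size alone, where JUND made it 4, and the number called lower was 4, except 2 under glmTreat, where FOSL2 (adjusted p = 0.07866) and ATF3 (adjusted p = 0.09435) were not called, and 3 without replicate 1 of either group. JUN turned to -0.37 without VprBP sh replicate 1, with a range of -0.37 to 0.46 over single samples left out, and to -0.20 without replicate 1 of either group. The genes called were 7778 of 16756, 7949 to 8142 with 1 sample left out, and 4690 of 13103 with at least 10 counts in every sample, a filter that removes genes at 0 in a group and left 1 bZIP partner called higher, 3 lower and 12 AP-1 targets lower. Of the other immediate early genes, 10 were called higher with library size alone and 3 under glmTreat, and 4 to 7 with 1 sample left out, and 5 to 10 were called lower with 1 sample left out and 10 without replicate 1 of either group. Of the upstream regulators, 5 were called lower with TMM factors, DESeq2 or without replicate 1 of either group, and 3 to 4 with 1 sample left out. Causes were not tested. Scaling moved the median gene from 0.08 (log2, upper quartile) to -0.01 under TMM, -0.04 under DESeq2 and 0.29 by library size alone. Deviations from the group mean had correlations over genes of -0.25, -0.11 and -0.21 between same-numbered samples. Within a group of 3 such deviations are tied to each other, so they cannot show whether the numbers pair the samples. The replicate block gave 7686 called genes and the same counts for the 10 genes, with FOS at 3.06, FOSB at 4.30 and EGR1 at 2.52. With 3 samples a group and replicate 1 apart, the sizes of the FOS, FOSB and EGR1 increases are uncertain.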
